A study of Schmidtea mediterranea with 8 samples.

Results

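The nervous system of the planarian Schmidtea mediterranea was represented here by a published panel of 70 contigs of the Dresden transcriptome assembly, assembled by the study from planarian genes already tied to the brain or head and from likely neuronal genes picked by homology. Of these 70 contigs, 55 were described, and 15 were left out: the choline acetyltransferase, prohormone convertase and synapsin markers, and further genes such as nkx2, nkx6, pax6B, zic-1, wnt2 and ndl-3. All 55 members were found among the 38633 contigs of the deposited tables. By their annotation they fell into 14 peptide genes, 8 genes of transmitter synthesis and packaging, 19 transcription factors, 7 synaptic and cytoskeletal genes, 4 channel and pump genes, and 3 receptor and signalling genes. Membership and class were read from names and annotations, with no expression value used, but the panel was drawn up from genes expected in neurons. A higher level of the panel in CNS tissue is therefore no independent finding.

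The RNA-seq data comprised 4 groups with 2 libraries in each. Dissected cephalic ganglia (CNS) came from large sexual animals of strain S2F1L3F2 after 12 feedings of dsRNA at intervals of 4 days, against hedgehog in the hh(RNAi) CNS, against patched in the ptc(RNAi) CNS, and against unc-22, a nematode gene that planarians lack, in the control CNS. Control head fragments, in which the ganglia are mixed with gut, muscle, epidermis and other tissue, came from asexual animals of strain CIW4 after 6 feedings of unc-22 dsRNA. CNS libraries were made from 0.2 µg of total RNA and head libraries from 1 µg. Tissue, strain, number of feedings, dissection after brief acid fixation and RNA input all differed between the control CNS and the control head, and their effects cannot be told apart. The RNAi groups shared strain, feedings and dissection with the control CNS.

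Planarian neurons signal with peptides and with small-molecule transmitters. Neuropeptides are cut from larger prohormones and released from dense-core vesicles, while acetylcholine, glutamate, GABA, serotonin, dopamine and octopamine are made by dedicated enzymes or loaded into vesicles by dedicated transporters. Synaptic vesicles fuse through SNARE proteins under control of calcium sensors of the synaptotagmin family. In the Hedgehog pathway the receptor Patched holds signalling off until the ligand Hedgehog binds it, so that loss of the ligand lowers and loss of Patched raises signalling.

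The 8 libraries held between 11479783 and 18932854 reads on contigs (median 12327233), and a value is given below as normalized reads, the whole reads of a library divided by its size factor. The libraries of a group are called a and b, where a is the library with the larger size factor. Apart from that, the same letter in 2 groups marks no tie between libraries. The neuronal markers synapsin, choline acetyltransferase and prohormone convertase 2, which are no members, were called higher in the control CNS in 3 of 3 cases, with summed levels of 68459 and 67219 normalized reads in control CNS against 11507 and 12008 in the control head. Of 14 markers of other tissues (neoblasts, parenchyma, protonephridia, body rim, muscle, gut and pharynx), 13 were tested, 9 were called lower in the control CNS and 1 higher, the gut marker mboat7. Their summed levels were 19918 and 24950 normalized reads in control CNS against 105918 and 107119 in the control head, so that transcripts of other tissues were still present in the dissected ganglia.

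The targeted genes, which are no members, were lower in the groups that received their dsRNA. The hh contig had 38.5 and 80.0 normalized reads in hh(RNAi) CNS, against 242.0 and 210.9 in the control CNS (log2 fold change -2.01 ± 0.38, SE, limma adjusted p = 0.9999). The ptc contig had 188.8 and 198.4 normalized reads in ptc(RNAi) CNS, against 287.5 and 292.4 in the control CNS (-0.58 ± 0.13, SE, adjusted p = 0.308). The libraries did not overlap in either case, and neither difference passed the test, so that a missed threshold in these 2-library comparisons does not show an unchanged level. The ptc contig was also lower in the hh(RNAi) CNS, with 155.6 and 109.8 normalized reads, against 286.5 and 293.2 in the control CNS (-1.14 ± 0.22, SE, adjusted p = 0.9999).

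The panel was higher in dissected ganglia than in whole head fragments, and peptide genes by far the most. Of the 55 members, 50 averaged at least 100 normalized reads over the control CNS and the control head and were tested, and 5 did not. Of these 50, 45 were called higher (adjusted p under 0.05 and more than 2-fold), 0 were called lower, and 5 were not called. The minimum was an average over both groups, so some members reached it only through the control CNS, where they were high. Among these were ppl-1, grh-1 and tbh, with means of 26.0, 31.6 and 27.4 normalized reads in the control head. The count of members called higher is therefore not independent of the minimum. Over all 13494 contigs tested, 32.7% were called higher and 22.2% lower. The median log2 fold change was 2.63 in the members and 0.32 over all tested contigs. In 49 of the 50 members the log2 fold change was above 0, against 7805 of all 13494 contigs tested. Since whole tissue was sequenced, more cells of a type and more RNA per cell cannot be told apart. The counts with edgeR and DESeq2 were 43 and 42 members called higher.

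**Figure D1:**
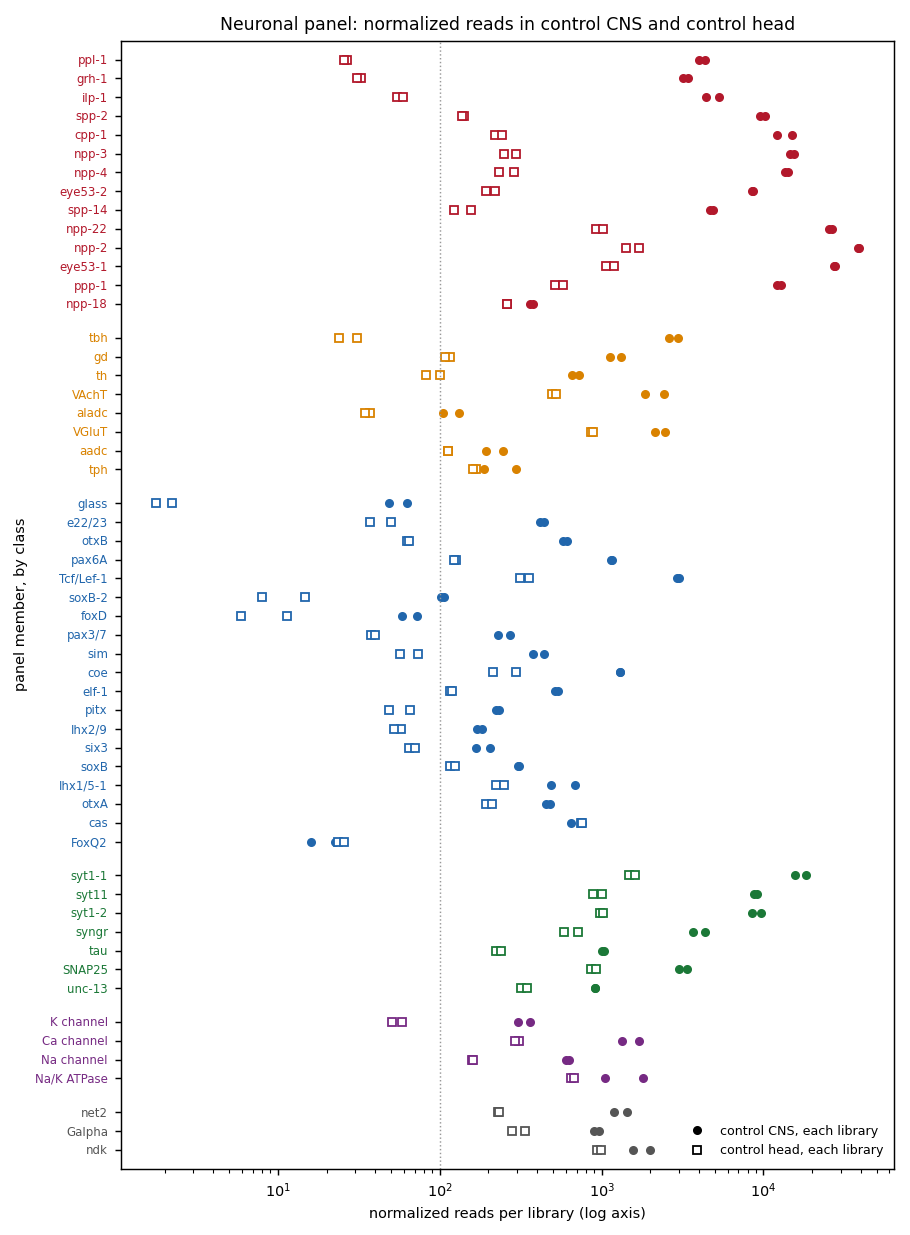
Normalized reads of each of the 55 panel members in each library (log axis), with filled circles for control CNS and open squares for control head, coloured by class; the dotted line marks the minimum of 100 for the average of both groups. The circles stand to the right of the squares for every tested member but cas, and the gap is widest in the peptide genes at the top and in tbh.

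Peptide genes stood apart from the other classes. All 14 were tested, 13 were called higher, and the median log2 fold change was 5.55, or 46.9-fold. More than 16-fold higher levels were found in 14 of the 50 tested members, namely these 13 peptide genes and tbh, against 2.22% of all tested contigs. Apart from npp-18, the peptide genes lay between 4.51 and 7.27 on the log2 scale, a range that overlapped with no other tested member except tbh.

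The pyrokinin-like prohormone gene ppl-1 had 4007 and 4344 normalized reads in control CNS libraries, against 26.6 and 25.5 in the control head libraries. The log2 fold change was 7.27 ± 0.09 (SE), or 154-fold (limma adjusted p = 9.7e-06). The gonadotropin-releasing-hormone-like gene grh-1 had 3180.2 and 3409 normalized reads in control CNS, against 32.5 and 30.8 in the control head, a log2 fold change of 6.66 ± 0.09 (SE). For both genes the 2 groups were far apart and the libraries of a group close together. The insulin-like peptide gene ilp-1 followed at 6.39, and then the prohormone genes spp-2 at 6.14 and cpp-1 (cerebral peptide) at 5.87. The neuropeptide precursor genes npp-3 and npp-4 reached 5.77 and 5.74. Lower in the order were eye53-2 at 5.37, spp-14 at 5.11, npp-22 at 4.75, npp-2 at 4.65 and eye53-1 at 4.603. The pair eye53-1 and eye53-2 carries no annotation and was placed with the peptides by the reference it shares with them. Neighbours in this order differed by less than their standard errors in several places, such as npp-3 and npp-4.

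At the lower end, the pedal peptide-like gene ppp-1 still had 12126 and 12827 normalized reads in control CNS, against 517.2 and 576.5 in the control head (log2 fold change 4.51 ± 0.08, SE). The neuropeptide precursor gene npp-18 was the exception of its class. It had 358.6 and 376.5 normalized reads in control CNS, against 259.0 and 258.7 in the control head. Its libraries did not overlap and its log2 fold change of 0.50 ± 0.08 (SE) passed the adjusted threshold (adjusted p = 0.0034) but not 2-fold. With edgeR, whose scaling moved the median of all tested contigs by -0.30, it was 0.20 with an adjusted p of 0.096. Thus 1 of 14 peptide genes differed by less than 2-fold between ganglia and head.

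**Figure D2:**
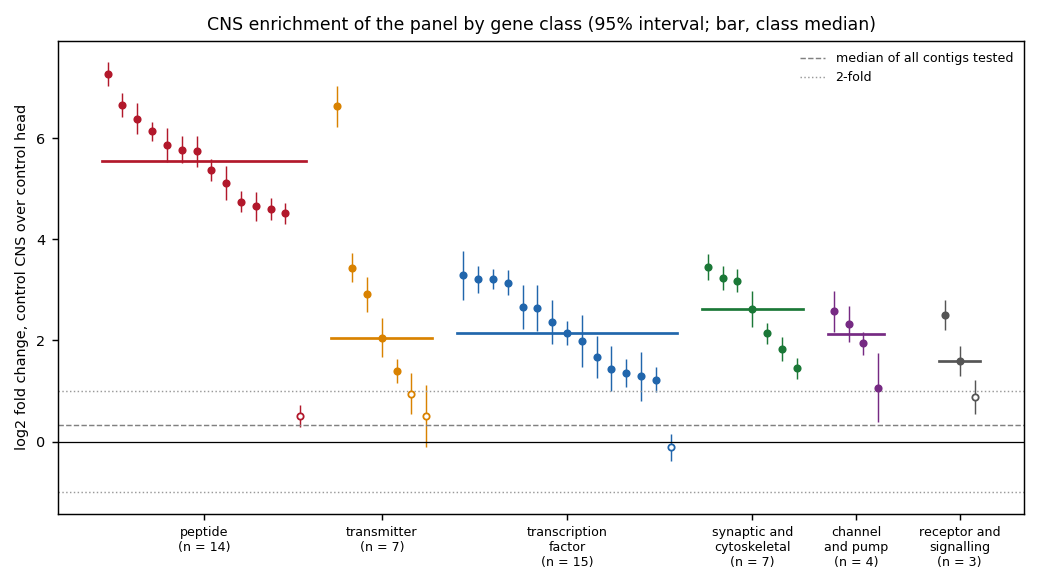
Log2 fold change of control CNS over control head for the 50 tested members, grouped by class, with 95% intervals from limma; filled points were called higher, open points were not called, bars are class medians, the dashed line is the median of all tested contigs (0.32) and dotted lines mark 2-fold. Peptide genes other than npp-18 lie at 4.51 or above, and of the remaining members tbh alone reaches that range.

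Among the transmitter genes the enrichment differed from gene to gene. Of 8 genes 7 were tested and 5 were called higher, with a median log2 fold change of 2.06. Tyramine beta-hydroxylase (tbh), which makes octopamine from tyramine, had 2619 and 2956 normalized reads in control CNS, against 31.0 and 23.8 in the control head. Its log2 fold change of 6.63 ± 0.16 (SE), or 98.9-fold, placed it next to grh-1 and away from the rest of its class. Glutamate decarboxylase (gd), which makes GABA, had 1132 and 1312 normalized reads in control CNS, against 115.8 and 107.4 in the control head, a log2 fold change of 3.44 ± 0.11 (SE). Tyrosine hydroxylase (th), the rate-limiting enzyme of dopamine synthesis, was at 2.91. The vesicular transporters were lower in the order, with the acetylcholine transporter VAchT at 2.06 and the glutamate transporter VGluT at 1.40. These 5 genes were called higher.

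The lowest fold changes among the tested genes of the class were those of tph and aadc. Tryptophan hydroxylase (tph), the rate-limiting enzyme of serotonin synthesis, had 186.4 and 293.8 normalized reads in control CNS, against 167.5 and 161.1 in the control head. The libraries did not overlap, but the log2 fold change of 0.51 ± 0.23 (SE) did not pass the threshold (adjusted p = 0.098), as the control CNS libraries were far apart. Aromatic amino acid decarboxylase (aadc), which acts in both serotonin and dopamine synthesis, had 193.6 and 245.6 normalized reads in control CNS, against 112.1 and 112.7 in the control head. Its log2 fold change of 0.95 ± 0.16 (SE) passed the adjusted threshold (adjusted p = 0.0033) and missed 2-fold. Without control CNS library a it was 1.12 and called. The second decarboxylase contig, aladc, averaged under 100 normalized reads and was not tested. It had 104.5 and 130.8 normalized reads in control CNS, against 36.9 and 34.3 in the control head, a ratio of 3.29 with a 95% counting interval of 2.54 to 4.27. This interval covers counting error only.

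Transcription factors were enriched to a lesser extent than peptide genes. Of 19 genes 15 were tested, 14 were called higher, and the median log2 fold change was 2.15. The bHLH gene e22/23 had 415.6 and 443.1 normalized reads in control CNS, against 36.9 and 50.2 in the control head (log2 fold change 3.29 ± 0.19, SE). The orthodenticle homolog otxB, which in planarians is expressed in the brain, had 614.0 and 577.7 normalized reads in control CNS, against 62.7 and 64.2 in the control head (3.21 ± 0.10, SE). The paired box gene pax6A had the same value of 3.21, with 1147 and 1162 normalized reads in control CNS, against 125.4 and 122.3 in the control head. These leading factors were thus about 9-fold higher, far below the peptide genes. Tcf/Lef-1, of the family that acts on targets of Wnt signalling, was at 3.14, pax3/7 at 2.66, the bHLH gene sim at 2.64 and coe, of the Collier/Olf/Ebf family, at 2.37. The ETS domain gene elf-1 stood at 2.15 and pitx, which in planarians is needed for serotonergic neurons, at 1.99. The LIM homeobox gene lhx2/9 was at 1.67, six3 at 1.44, soxB at 1.35 and lhx1/5-1 at 1.29.

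The orthodenticle homolog otxA was the lowest of the factors called higher. It had 482.1 and 454.3 normalized reads in control CNS, against 191.8 and 209.5 in the control head (log2 fold change 1.22 ± 0.09, SE). With the median over all tested contigs subtracted, its value was 0.90 and that of lhx1/5-1 was 0.97, so that neither was then beyond 2-fold. The castor homolog cas, a zinc finger gene that marks stages of neuroblasts in Drosophila, was the only tested member with libraries that overlapped. It had 642.5 and 753.0 normalized reads in control CNS, against 749.6 and 758.6 in the control head. The log2 fold change was -0.12 ± 0.10 (SE), with an adjusted p of 0.316. With edgeR it was -0.42 with an adjusted p of 0.0084, short of 2-fold. No scaling placed cas above the head.

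The remaining 4 factors averaged under 100 normalized reads and are given by their counts. The glass-like gene, whose Drosophila counterpart acts in photoreceptors, had 41 and 51 reads in the control CNS, against 3 and 2 reads in the control head, a depth-corrected ratio of 27.7 with a 95% counting interval of 11.5 to 87.5. The Sox gene soxB-2 had 89 and 82 reads in the control CNS, against 20 and 9 reads in the control head (ratio 8.89, interval 5.97 to 13.7). The forkhead gene foxD had 49 and 59 reads in the control CNS, against 8 and 13 reads in the control head (ratio 7.76, interval 4.83 to 13.04). All 3 were higher in ganglia beyond counting error. FoxQ2, also of the forkhead family, had 19 and 13 reads in the control CNS, against 32 and 29 reads in the control head, with a ratio of 0.791 whose interval of 0.499 to 1.23 included 1.

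All 7 synaptic and cytoskeletal genes were called higher, with a median log2 fold change of 2.63. The calcium sensor gene syt1-1 of the synaptotagmin family had 15705 and 18207 normalized reads in control CNS, against 1476 and 1614 in the control head (log2 fold change 3.45 ± 0.10, SE). Its relative syt11 had 8726 and 9084 normalized reads in control CNS, against 880.9 and 1008 in the control head (3.24 ± 0.09, SE). The 3 synaptotagmins were close to each other, with syt1-2 at 3.18. The vesicle protein gene syngr (synaptogyrin) was at 2.63 and the microtubule-binding protein gene tau at 2.14. The SNARE gene SNAP25 had 3001 and 3379.8 normalized reads in control CNS, against 861.0 and 927.6 in the control head (1.83 ± 0.09, SE). The vesicle priming gene unc-13 had 916.8 and 907.3 normalized reads in control CNS, against 319.5 and 346.8 in the control head (1.45 ± 0.08, SE). The member contigs of the 3 synaptotagmins thus had larger fold changes than those of SNAP25 and unc-13. This order depended on the contig, as 2 further unc-13 contigs, which are no members, reached 3.53 and 3.35.

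The 4 channel and pump genes were called higher, with a median of 2.13. The voltage-gated potassium channel contig had 358.6 and 302.4 normalized reads in control CNS, against 50.9 and 58.1 in the control head (log2 fold change 2.58 ± 0.16, SE). The T-type calcium channel subunit had 1699 and 1329 normalized reads in control CNS, against 307.7 and 292.2 in the control head (2.32 ± 0.14, SE). The voltage-gated sodium channel had 631.8 and 598.7 normalized reads in control CNS, against 157.9 and 161.1 in the control head (1.94 ± 0.08, SE). The ion channels lay between about 4-fold and 6-fold. The Na/K ATPase, the pump that restores ion gradients in most animal cells, had 1053 and 1802 normalized reads in control CNS, against 643.4 and 672.4 in the control head. Its log2 fold change of 1.07 ± 0.26 (SE) was just past 2-fold (adjusted p = 0.014), and it was the call that most alternatives ended: it was 0.68 without control CNS library b and 0.81 with edgeR. The control CNS libraries were further apart than in any other channel gene.

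Of the 3 receptor and signalling genes, 2 were called higher. The axon guidance gene net2 (netrin) had 1191 and 1444 normalized reads in control CNS, against 228.0 and 233.2 in the control head (log2 fold change 2.503 ± 0.11, SE). The G protein subunit gene Galpha had 960.7 and 898.6 normalized reads in control CNS, against 281.1 and 335.3 in the control head (1.59 ± 0.11, SE). The FGF receptor-like gene ndk (nou-darake), which in planarians confines brain tissue to the head, had 1569 and 1984 normalized reads in control CNS, against 937.7 and 988.3 in the control head. Its log2 fold change of 0.87 ± 0.13 (SE) passed the adjusted threshold (adjusted p = 0.0022) but was short of 2-fold, except without control CNS library a, when it was 1.04.

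For 6 members the assembly held further contigs of the same component, 16 in all, among which the best single alignment could have split reads. The other 49 members were alone in their component. In the unc-13 component the contigs differed widely. The member, contig 1, had a log2 fold change of 1.45, while contigs 3 and 4 reached 3.53 and 3.35 and contig 2 was at -0.05 ± 0.09 (SE). Contig 3 had 406.1 and 449.3 normalized reads in control CNS, against 35.4 and 37.0 in the control head, and contig 2 had 233.9 and 244.4 in the control CNS, against 255.3 and 240.3 in the control head. Contig 2 thus took 12.859% and 13.001% of the component's reads in the control CNS, against 40.1% and 36.4% in the control head. The sum over the component gave 1.51, close to the member's value.

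The potassium channel component had 8 contigs in 2 sets. Contigs 1 to 4, of which the member is contig 4, lay between 2.48 and 2.71 on the log2 scale, and contigs 5 to 8 between 3.92 and 4.35. Summed over the component the log2 fold change was 3.07, against 2.58 for the member alone. In the tau component contig 4 was at 0.42 while contig 1 and the member, contig 2, were at 2.504 and 2.14. Whether the contigs of a component are isoforms, alleles of one strain or assembly fragments cannot be read from these tables. Sums over the components of spp-2, tph and lhx2/9 gave 5.83, 0.42 and 1.72, and no call changed when contigs were summed.

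**Figure D3:**
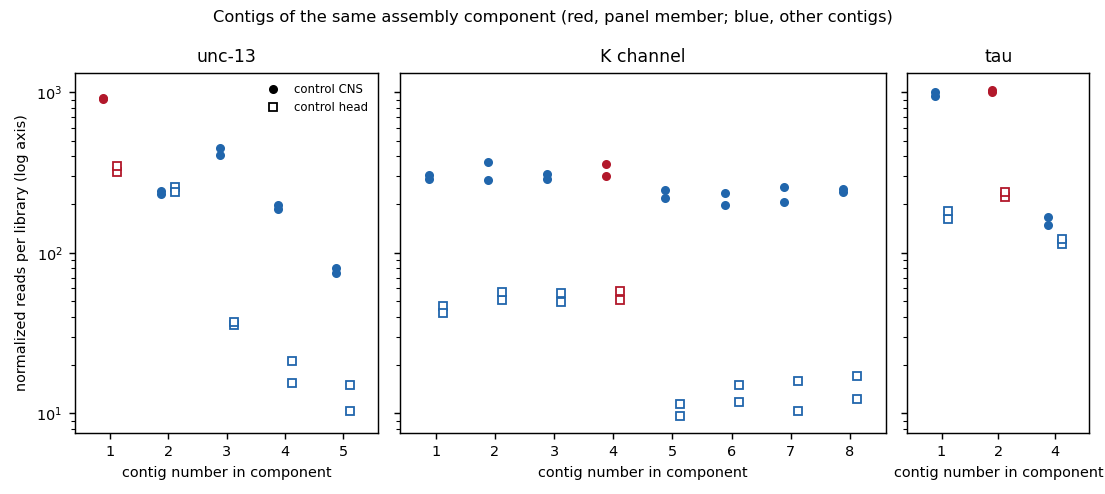
Normalized reads per library (log axis) of the contigs in the assembly components of unc-13, the potassium channel and tau, with filled circles for control CNS and open squares for control head; red marks the panel member. In unc-13 contig 2 lies at the same level in both tissues, and in the potassium channel contigs 5 to 8 lie further apart between tissues than contigs 1 to 4.

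In the hh(RNAi) CNS no panel member was called against the control CNS. Of 50 members tested, 0 were called with limma, edgeR or DESeq2, against 0.00823% of all 12153 contigs tested, or 1 contig. At an unadjusted p under 0.05 with limma, 2 members were lower and 0 higher, against 2.27% of all contigs in either direction. The 95% interval of the fold change lay within 2-fold in either direction in 49 of the 50 members, so for these a change beyond 2-fold lay outside the interval, while smaller changes could not be shown at 2 libraries a group.

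The peptide gene npp-18 was the exception among the intervals. It had 134.6 and 219.6 normalized reads in hh(RNAi) CNS, against 298.3 and 313.8 in the control CNS. Both hh(RNAi) libraries were lower, by a log2 fold change of -0.83 ± 0.26 (SE) with a 95% interval from -1.47, but the adjusted p was 0.9999 (limma, unadjusted 0.0207). The other gene at an unadjusted p under 0.05 was gd, with 777.3 and 715.4 normalized reads in hh(RNAi) CNS, against 941.4 and 1094 in the control CNS (-0.44 ± 0.15, SE, limma unadjusted p = 0.0258). Leaving out a library gave -1.18 to -0.48 for npp-18 and -0.55 to -0.34 for gd, all without a call.

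Of the 14 peptide genes 13 had a log2 fold change below 0 in the hh(RNAi) CNS, against 54.2% of all tested contigs, and the class median was -0.14. The exception was npp-2, at 0.08, with 29065 and 40091 normalized reads in hh(RNAi) CNS, against 32486 and 31995 in the control CNS. In 2 of the 14 peptide genes, ppl-1 and npp-18, both hh(RNAi) libraries were below both control libraries, against 15.7% of all tested contigs. The direction of the class rested on hh(RNAi) library a: relative to the control mean the class median was -0.40 in library a and 0.09 in library b.

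The medians of the other classes were above 0 by small amounts, and for all but the transcription factors this rested on hh(RNAi) library a. Relative to the control mean, the medians in library a and library b were 0.11 and -0.06 for transmitter genes, 0.15 and -0.03 for synaptic and cytoskeletal genes, 0.22 and 0.01 for channel and pump genes and 0.52 and -0.07 for receptor and signalling genes, but 0.18 and 0.09 for transcription factors. Transcription factors had a median of 0.11, and in 7 of 15 both hh(RNAi) libraries were above both control libraries, against 10.7% of all tested contigs. Among these was soxB, with 310.4 and 322.0 normalized reads in hh(RNAi) CNS, against 255.8 and 254.1 in the control CNS (log2 fold change 0.31 ± 0.14, SE, adjusted p = 0.9999). Another was lhx2/9 at 0.28, but the other contig of its component was at -0.07 and the component sum at 0.11. The lowest factor was cas, with 511.8 and 518.2 normalized reads in hh(RNAi) CNS, against 534.4 and 627.6 in the control CNS (-0.17 ± 0.15, SE). None of these values passed the test.

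The remaining classes had medians of 0.06 for transmitter genes, 0.06 for synaptic and cytoskeletal genes, 0.07 for channel and pump genes and 0.22 for receptor and signalling genes. The transmitter gene with the largest positive value was aadc, with 195.9 and 234.6 normalized reads in hh(RNAi) CNS, against 161.0 and 204.7 in the control CNS (0.24 ± 0.20, SE). SNAP25 had 3508 and 2760.3 normalized reads in hh(RNAi) CNS, against 2496 and 2817 in the control CNS (0.23 ± 0.18, SE), and tau, with 761.7 and 808.1 in the hh(RNAi) CNS, against 865.3 and 837.5 in the control CNS, was at -0.12 ± 0.13 (SE). The calcium channel had 1465 and 1383 normalized reads in hh(RNAi) CNS, against 1414 and 1108 in the control CNS (0.19 ± 0.17, SE). For net2 the values were 1564 and 1039.5 in the hh(RNAi) CNS, against 991 and 1204 in the control CNS (0.22 ± 0.23, SE). All of these but tau overlapped between groups, and summed over its component tau was at -0.02.

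In the ptc(RNAi) CNS no member was called either. Of 51 tested members, which here included aladc, 0 were called with limma, edgeR or DESeq2, against 0.338% of all 12121 contigs tested, or 41 contigs. At an unadjusted p under 0.05 with limma, 2 members were lower and 0 higher, against 6.39% of all contigs in either direction. The 95% interval lay within 2-fold in all 51.

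Again 13 of 14 peptide genes had a log2 fold change below 0, against 52.5% of all tested contigs, with a class median of -0.22. In 8 of the 14 both ptc(RNAi) libraries were below both control libraries, against 19.2% of all tested contigs. The lowest value was that of spp-2, with 6980.2 and 5875 normalized reads in ptc(RNAi) CNS, against 7948 and 8454 in the control CNS (-0.36 ± 0.13, SE, unadjusted p = 0.0357, adjusted p = 0.728). For ppl-1 the values were 3008 and 2657 in the ptc(RNAi) CNS, against 3345 and 3609.9 in the control CNS (-0.30 ± 0.12, SE, unadjusted p = 0.047, adjusted p = 0.775). The exception was npp-18, with 456.4 and 308.6 normalized reads in ptc(RNAi) CNS, against 299.4 and 312.9 in the control CNS (0.29 ± 0.20, SE), whose libraries overlapped. The control libraries in this comparison are those of the hh(RNAi) comparison, so the low peptide values in both are not independent of each other. Relative to the control mean, the peptide median was -0.08 in ptc(RNAi) library a and -0.37 in library b.

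Outside the peptides the class medians in the ptc(RNAi) CNS lay between -0.11 and 0.03. In 4 of 15 transcription factors both ptc(RNAi) libraries were above both control libraries, against 17.2% of all tested contigs. Among these was lhx2/9 at 0.32, but the other contig of its component was at 0.03 and the component sum at 0.17. The largest positive value was that of cas, with 861.2 and 630.1 normalized reads in ptc(RNAi) CNS, against 536.4 and 625.8 in the control CNS (0.35 ± 0.18, SE, adjusted p = 0.829). The lowest factor was Tcf/Lef-1, with 2109 and 2364 normalized reads in ptc(RNAi) CNS, against 2511 and 2417 in the control CNS (-0.14 ± 0.12, SE). Among the transmitter genes the values ran from tph, with 162.5 and 162.3 normalized reads in ptc(RNAi) CNS, against 155.7 and 244.1 in the control CNS (-0.26 ± 0.23, SE), to VGluT, with 1815 and 2259 in the ptc(RNAi) CNS, against 1795 and 2058 in the control CNS (0.08 ± 0.15, SE). For both of these the groups overlapped.

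SNAP25 had 2653 and 3021 normalized reads in ptc(RNAi) CNS, against 2505 and 2809 in the control CNS (0.09 ± 0.13, SE), and tau had 763.9 and 723.3 in the ptc(RNAi) CNS, against 868.5 and 835.0 in the control CNS (-0.20 ± 0.11, SE). The potassium channel had 223.8 and 235.4 normalized reads in ptc(RNAi) CNS, against 299.4 and 251.3 in the control CNS (-0.26 ± 0.15, SE). The Na/K ATPase had 1066 and 1737 normalized reads in ptc(RNAi) CNS, against 879.4 and 1498 in the control CNS (0.25 ± 0.31, SE). For ndk the values were 1178 and 2075 in the ptc(RNAi) CNS, against 1309.7 and 1649 in the control CNS (0.09 ± 0.27, SE), and for Galpha they were 654.9 and 858.5 in the ptc(RNAi) CNS, against 802.1 and 746.8 in the control CNS (-0.05 ± 0.16, SE). In tau and the potassium channel the groups did not overlap, and in the other 4 they did. These values are those of the member contigs. Summed over the component, tau was at -0.13 and the potassium channel at -0.12.

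**Figure D4:**
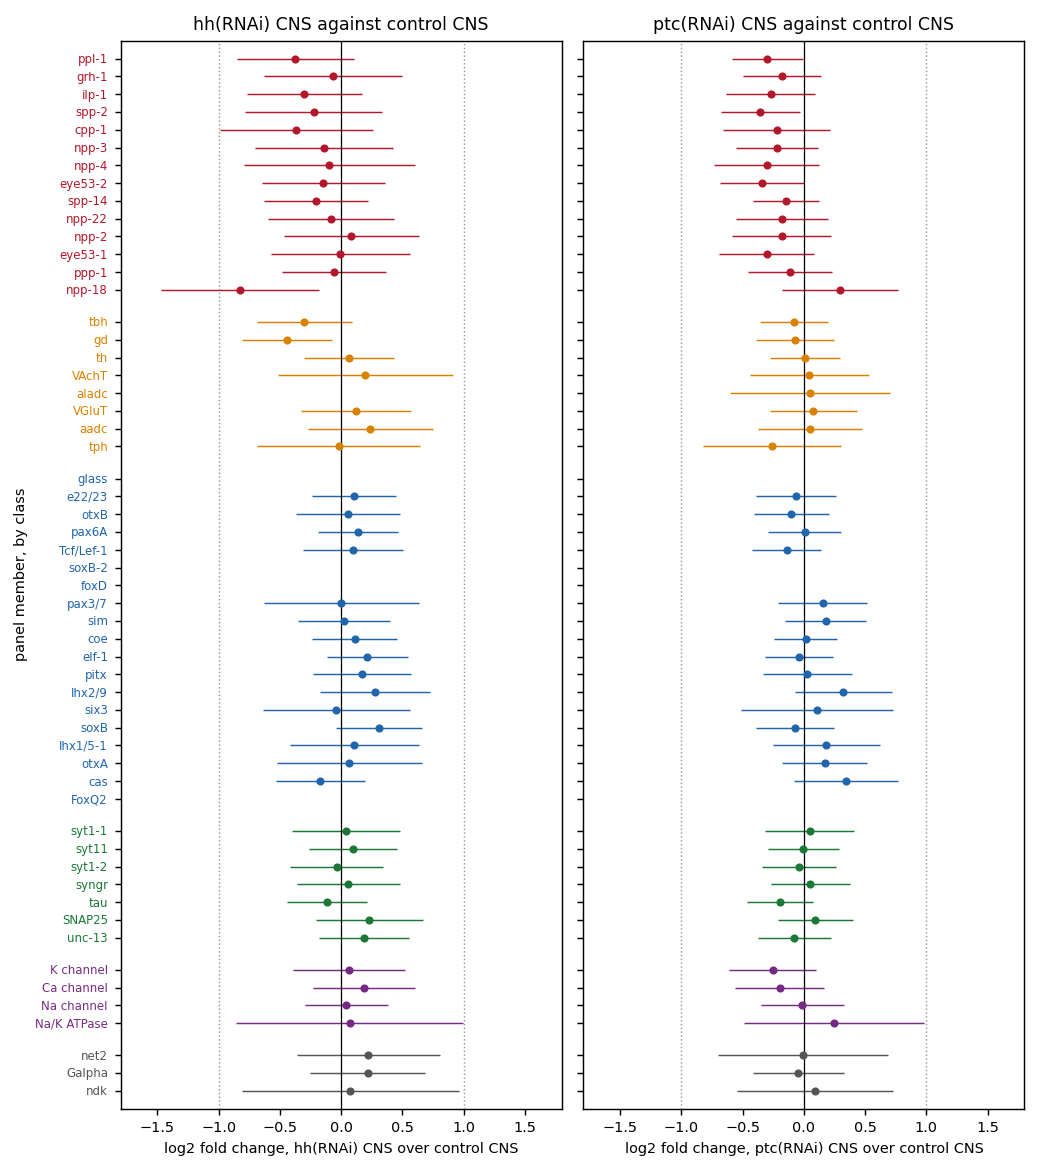
Log2 fold change of hh(RNAi) CNS (left) and ptc(RNAi) CNS (right) over control CNS for each tested member, with 95% intervals from limma, coloured by class; members with no point were not tested, and dotted lines mark 2-fold. All intervals but that of npp-18 in the hh(RNAi) CNS stay within 2-fold, and 13 of 14 peptide genes lie left of 0 in each panel.

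The members under the minimum were also compared by counts. Counting intervals of the ratio to the control CNS included 1 for glass, soxB-2, foxD and FoxQ2 in both RNAi groups and for aladc in the hh(RNAi) CNS. The lowest ratio was 0.892 for soxB-2 in the hh(RNAi) CNS (interval 0.713 to 1.11), and the highest was 1.35 for FoxQ2 in the ptc(RNAi) CNS (0.835 to 2.19). For glass, the factor with the largest CNS-to-head ratio, the values were 1.052 in the hh(RNAi) CNS and 1.30 in the ptc(RNAi) CNS.

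Set directly against each other, the hh(RNAi) CNS and the ptc(RNAi) CNS did not differ in any member past the threshold. Of 50 members tested 0 were called with limma and 0 with edgeR, against 0.528% of all 12123 contigs tested. At an unadjusted p under 0.05, 5 of the 50 members differed, a share close to the 8.48% of all contigs. These were npp-18 (log2 difference -1.13 ± 0.28, SE, adjusted p = 0.275), cas (-0.53 ± 0.18), gd (-0.38 ± 0.14), soxB (0.37 ± 0.12) and the calcium channel (0.37 ± 0.15). In all 5 the libraries of both groups did not overlap, but picking members by this p-value favours such genes. The share of all contigs without overlap was not computed here. On the common scale of this comparison npp-18 had 134.0 and 219.9 normalized reads in hh(RNAi) CNS, against 460.3 and 309.3 in the ptc(RNAi) CNS, the largest difference of the panel. For cas the hh(RNAi) values were 509.6 and 518.8 normalized reads, against 868.5 and 631.6 in the ptc(RNAi) CNS. Both genes were lower than the control in the hh(RNAi) CNS, and cas was higher than both control libraries in both ptc(RNAi) libraries. The neoblast marker smedwi-1, which is no member, was singled out from the 14 markers of other tissues after its values were seen. It differed from the control by -1.06 in the hh(RNAi) CNS and by 1.18 in the ptc(RNAi) CNS on the log2 scale. Its libraries did not overlap with the control in either group. The other neoblast marker, smedwi-2, overlapped with the control in the hh(RNAi) CNS (-0.26) and was higher in the ptc(RNAi) CNS (0.55). The parenchyma marker agat-1 was at -0.71 and -0.78, with overlap in both. The part of other tissues in the values of npp-18 and cas was not tested. The genes npp-18 and cas are also the peptide gene and the transcription factor with the smallest tested enrichment in the control CNS over the head. The peptide class as a whole had a median difference of 0.07, with 95% intervals within 2-fold in 13 of 14 genes, npp-18 being the exception.

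Libraries of the same RNAi group differed from each other, and did so by class. In hh(RNAi) library a all 14 peptide genes were lower than in library b, by a median log2 difference of -0.51 and a range from -0.79 to -0.28. Over all tested contigs 57.5% were lower in library a, with a median of -0.07. The 3 receptor and signalling genes were higher in library a, by 0.45 to 1.051. In the ptc(RNAi) CNS all 14 peptide genes were higher in library a than in library b, by a median of 0.30 and a range from 0.09 to 0.56, while the receptor and signalling genes differed by -0.93 to -0.39, and 45.4% of all tested contigs were lower in library a. In the control CNS 13 of 14 peptide genes were lower in library a, by a median of -0.08, against 55.2% of all tested contigs. All 7 tested transmitter genes were lower there too, by a median of -0.22. In the control head 10 of 14 peptide genes were lower in library a, by a median of -0.15, against 54.8% of all tested contigs. In both RNAi groups the peptide genes thus differed in the same direction between libraries, by a median larger in size than the shift between hh(RNAi) and control CNS (-0.14), whereas the control CNS libraries differed by less.

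**Figure D5:**
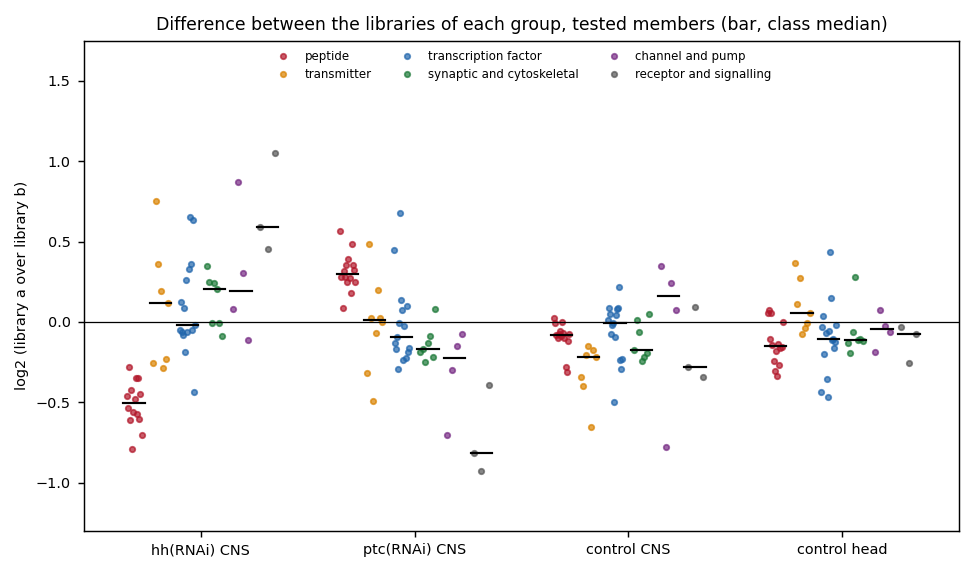
Log2 difference of library a minus library b for each tested member within each group, by class, with bars for class medians. In the hh(RNAi) CNS all 14 peptide genes lie below 0 and all 3 receptor and signalling genes above, and in the ptc(RNAi) CNS the classes lie on the opposite sides. Library a has the larger size factor in each group, and the letters do not otherwise link libraries of different groups.

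Markers outside the panel differed between the same libraries. The summed level of the 3 neuronal markers was 69583 normalized reads in hh(RNAi) library a and 58201 in library b, against 56943 and 56028 in the control CNS libraries. In the ptc(RNAi) comparison it was 49804 in library a and 58048 in library b, against 57154 and 55862 in the control CNS libraries. Within each RNAi group the summed level was thus higher in the library where the peptide genes were lower. Set against the control this did not hold throughout. The sum was above both control libraries in both hh(RNAi) libraries. In hh(RNAi) library b, however, synapsin and choline acetyltransferase lay between the control libraries, and only prohormone convertase 2 was above both. In the ptc(RNAi) CNS the sum was below both control libraries in library a and slightly above both in library b. The summed level of the 14 markers of other tissues was 14516 and 17190 normalized reads in hh(RNAi) CNS, against 16567 and 20796 in the control CNS, with 0 of 10 tested markers called. The neoblast marker smedwi-1 had 759.9 and 739.9 normalized reads in hh(RNAi) CNS, against 1365 and 1791 in the control CNS (log2 fold change -1.06, limma adjusted p = 0.88). In the ptc(RNAi) CNS the sum of the 14 markers was 24526 and 22489, against 16628 and 20734 in the control CNS, with 1 of 11 called, the gland marker marginal adhesive gland-1, which was higher. Of these markers wntP-3 was at 0 in a library of that comparison. The neoblast markers were higher in both ptc(RNAi) libraries than in both control libraries, without a call. For smedwi-1 the values were 4329 and 2885 normalized reads in ptc(RNAi) CNS, against 1370.2 and 1786 in the control CNS (1.18, adjusted p = 0.16), and for smedwi-2 they were 8417 and 8623 in the ptc(RNAi) CNS, against 5019 and 6705 in the control CNS (0.55, adjusted p = 0.508). In the hh(RNAi) CNS smedwi-2 overlapped with the control (-0.26). The part of tissue makeup in the values of the panel was not tested.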

How the data were processed

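The authors trimmed 5 bases from Illumina reads, mapped them with Bowtie2 to the Dresden transcriptome (best single alignment) and counted them with Samtools; the methods name DESeq2, while the columns carry names that DESeq writes, with versions not given in the sources used here. The deposited signal columns hold, for each of 3 comparisons, the mean of size-factor-normalized reads over the 2 libraries of a group. The deposited fold, log2 and p-value columns hold the authors' own comparison and were not used. A row naming no contig held 0 reads (0% of all) and was dropped.

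Because a group mean adds whole reads of 2 libraries, each weighted by its size factor, whole reads of each library could be recovered for 100% of means above 0. Both RNAi tables gave equal control CNS reads in all 38633 contigs. In the head table, 55 means of the control head and 12 of the control CNS allowed more than 1 solution, none of them a member.

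limma 3.58.1 (R 4.3.3; trend, empirical Bayes) was run on log2(normalized reads + 1) over contigs averaging at least 100 normalized reads, with Benjamini-Hochberg adjustment over all tested contigs; calls required more than 2-fold and an adjusted p under 0.05. Fold changes are on that scale. This departs from the count test of the methods, so DESeq2 1.42.0 and edgeR 4.0.16 (quasi-likelihood with TMM) on the recovered reads were alternatives, with other minimums, pseudocounts, scaling, summed contigs and left-out libraries. The hh(RNAi) minus ptc(RNAi) contrast used the 6 CNS libraries. The procedure was tested on simulated data with planted changes well beyond 2-fold only, so this test does not bear on smaller changes. Python 3.11.15 with numpy 2.4.6, pandas 2.3.3, scipy 1.17.1 and matplotlib 3.10.9 did the rest. Ratios of members under the minimum carry exact (Clopper-Pearson) 95% intervals of the share of counts.

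Libraries were prepared in duplicate with different indices; nothing says that they came from separate animals, so p-values measure only the spread between libraries, which may be technical. With no contig lengths, levels of different genes were not compared and the RPKM minimum of the methods was not computed. Per-library values are given, in the control CNS against the head, for the 2 largest and 2 smallest fold changes of each class and all members under the minimum, and, in the RNAi groups, for the largest rise and fall of each class and members at an unadjusted p under 0.05 or a log2 fold change beyond 0.5 in size. Members and lists were chosen with earlier results of these data known.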

Additional observations from a re-analysis of the deposited data

How the results depend on the processing

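The count of members called in the control CNS against the control head was 45, and between 42 and 49 with edgeR, DESeq2, no expression minimum, a pseudocount of 8, 1 fit over all 8 libraries, summed contigs, no minimum fold or scaling to the median of all contigs. It was 23 at a minimum of 1000 normalized reads, where 24 members were tested, and 44 to 47 with a library left out. No called member changed direction. Subtracting the median over all contigs lowered each member by the same 0.32. In the hh(RNAi) and ptc(RNAi) CNS and in their direct comparison the count stayed at 0 under each alternative run.

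Leaving out a library decided the sign of small RNAi values, none of which was called. In the hh(RNAi) CNS npp-2 ranged from -0.15 to 0.31 and net2 from -0.071 to 0.52, and in the ptc(RNAi) CNS VGluT ranged from -0.083 to 0.23, tph from -0.59 to 0.061, Na/K ATPase from -0.14 to 0.63, ndk from -0.32 to 0.50 and Galpha from -0.24 to 0.15. Reversals of VGluT, Na/K ATPase, ndk and Galpha came without control CNS library a (-0.02, -0.14, -0.08 and 0.01) and without a ptc(RNAi) library (-0.083, -0.11, -0.32 and 0.15). With hh(RNAi) library a alone set against the control CNS, the peptide median was -0.40, and with library b alone it was 0.09. A fit that leaves 1 library in a group assumes that this library varies like the others. Summaries by left-out library in the RNAi groups were chosen after seeing the data. No paired analysis was possible because the recovered libraries carry no replicate numbers. Depth limits the 5 members under the minimum to counting intervals.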
